A study of Mus musculus with 6 samples.

Results

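The cells described here are retinal cells that carried transcripts of melanin pigment genes. A kept cell was a member if it held at least 1 UMI (unique molecular identifier, 1 counted transcript) of 2 or more of Pmel, Dct, Mlana, Tyrp1 and Tyr, at least 3 UMIs over these 5 genes, and 0 UMIs of Pou4f2, Tfap2b and Nr2e3, which mark ganglion cells, amacrine and horizontal cells, and rods. The rule found 98 members among 58275 kept cells of 59303 barcodes: 97 at embryonic day 14 (E14), a single cell at E16, and 0 after birth (P0, P3 and P6, named by postnatal day). The study sequenced live cells of wild-type C57BL/6J mouse neurosensory retina by droplet single-cell RNA-seq, to follow how retinal cells arise, with 2 libraries at P3 and a single one at every other age. Retinas were pooled at each age, digested with papain and sorted by FACS for cells that excluded DAPI, with scatter gates against debris and doublets. Animals cannot be told apart within a library, so with 1 library holding nearly all members there was no test, and levels are given side by side. Levels are in CPM, UMIs per 1000000 UMIs of the same cells. All intervals are exact 95% intervals and cover counting error only.

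Melanin is made in melanosomes, which are organelles built on a fibrous scaffold. Pmel forms that scaffold, Tyr, Tyrp1 and Dct are the enzymes that turn tyrosine into melanin, and Mlana is a melanosome membrane protein needed for Pmel to mature. In the eye 2 sources make pigment, the melanocytes that come from the neural crest and settle in the choroid and iris, and the pigment epithelium that comes from the optic cup itself. The pigment epithelium lies against the photoreceptors, recycles retinoids, and continues at its rim into the ciliary margin, where neural retina and pigmented layer meet. The transcription factor Mitf switches on the pigment genes in both lineages.

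Members held transcripts of pigment epithelium, ciliary margin and retinal progenitor genes. The label of pigment epithelium or ciliary margin cells was not tested. With cells thinned to 2000 UMIs, Fgf15, a secreted factor of retinal progenitors, was found in 70.7% of members (59.6 to 80.3%), 53.9% of other E14 cells and 21.6% of E14 cells with a Pou4f2 UMI. Top2a, a gene of dividing cells, was found in 59.8% of members (48.3 to 70.4%), 47.3% of other cells and 20.6% of Pou4f2 cells. Thinning left out 15 shallow members, which held 1 UMI of Fgf15 and 2 of Top2a. The other cells include those with the markers that the rule bars from members. Within depth ranges, summed Top2a was 0.880 times the level of others at 2000 to under 10000 UMIs and 0.913 times at 10000 or more. Trpm1, Ttr, Ptgds and Krt18, which pigment epithelium expresses, were many times higher in members than in other cells. The ciliary margin list was 1.85-fold higher as a sum, with 4 of 9 compared genes past 2-fold, against 0.607% of all 8233 genes compared. Against other cells of matched depth its log2 ratio was 0.53. The mature pigment epithelium genes Rpe65, Lrat, Rgr and Best1 had 0 UMIs in E14 members, an upper limit of 2.82 CPM each. They were also at or below 0.834 CPM in other cells, under the 2.29 CPM that 3 UMIs make in members. They thus did not separate the groups at this depth, and their level in mature pigment epithelium was not measured. The 8 genes of the neural crest melanocyte list summed to 0.967 times the level of other cells (0.656 to 1.38). Kit and Ednrb, also found in other cells, gave 11 and 15 of its 31 UMIs in members. Sox10, Pax3 and Foxd3 had 0 UMIs in members (upper limit 2.82 CPM each) and at most 0.142 CPM in other cells. They did not separate the groups either, and their level in melanocytes was not measured. The cells are called by the rule, as cells with pigment gene UMIs.

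Promoters of the pigment genes are shown because the 5 genes define the members and are known targets of Mitf, which binds the M-box, TCATGTG. RefSeq promoters on build GRCm38.p6, running from 250 bases before to 50 after the start of the gene, were matched for 3 of the 5 genes. They lie at chr14:118052197-118052496 on the minus strand for Dct, at chr7:87493463-87493762 on the minus strand for Tyr, and at chr4:80833963-80834262 on the plus strand for Tyrp1. Each is printed 5′ to 3′ along its gene, with the M-box in capitals in either orientation.
Dct: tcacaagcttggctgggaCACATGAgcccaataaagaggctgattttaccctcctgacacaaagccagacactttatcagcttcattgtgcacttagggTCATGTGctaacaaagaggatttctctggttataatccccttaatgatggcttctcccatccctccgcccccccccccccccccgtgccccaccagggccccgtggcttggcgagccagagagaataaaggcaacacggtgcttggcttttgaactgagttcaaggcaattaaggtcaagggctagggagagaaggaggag
Tyr: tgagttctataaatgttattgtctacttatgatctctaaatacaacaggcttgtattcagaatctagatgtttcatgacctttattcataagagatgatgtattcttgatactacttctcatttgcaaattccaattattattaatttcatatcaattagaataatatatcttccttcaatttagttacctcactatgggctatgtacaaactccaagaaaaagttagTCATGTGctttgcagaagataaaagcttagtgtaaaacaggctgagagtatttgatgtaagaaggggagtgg
Tyrp1: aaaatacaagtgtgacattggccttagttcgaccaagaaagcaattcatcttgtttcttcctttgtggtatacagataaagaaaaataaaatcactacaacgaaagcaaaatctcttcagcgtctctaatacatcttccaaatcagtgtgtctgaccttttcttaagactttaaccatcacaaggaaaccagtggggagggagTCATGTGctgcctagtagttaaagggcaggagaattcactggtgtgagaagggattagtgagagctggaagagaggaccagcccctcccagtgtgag
All 3 promoters held an M-box, beginning 151 bases before the start of Dct, 22 before that of Tyr and 47 before that of Tyrp1. Dct held another on the opposite strand, 232 bases before its start. On either strand TCATGTG occurs in 3.77% of 32851 promoters of the same length, and the E-box CACGTG, found in 7.15% of them, was in none of the 3. A match is a run of letters and was not tested for binding. Pmel and Mlana, not in that table, lie on chromosomes 10 (128704195 to 128720238) and 19 (29697824 to 29708634) in GENCODE vM21 on the same build.

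At E14 the members made up 0.617% of 15716 kept cells (0.501 to 0.752%). At E16 the single member was 0.0337% of 2971 cells (0.000852 to 0.187%). In the later libraries 0 members were found. A count of 0, with 3 cells taken as its limit, allowed a share of up to 0.0288% of 10427 cells at P0, 0.0244% of 12305 and 0.0926% of 3238 in the P3 replicates, and 0.0220% of 13618 at P6, and the exact upper limits were between 0.0271 and 0.114%. Median UMIs per kept cell ranged from 4006 at P6 to 8373 at E16, and E14 had 5423.5. Of the kept barcodes, 293 occurred in more than 1 library, and no member's barcode did. The filters removed 212 barcodes at E14, of which 2 met the rule (with 4 and 8 pigment UMIs), and none of those removed elsewhere did. The marker Pou4f2 had 0 UMIs in P3 replicate 1 and at P6. From P0 to P6, 0 cells met the pigment conditions, so none of the marker conditions removed a cell there. At E16 the only cell that met them was the member.

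The pigment genes themselves had their own course over the libraries. Pmel was at 5.37 CPM over all kept E14 cells (574 UMIs), at 0.183 in the E16 library, and between 0.123 and 0.776 from P0 to P6. Mlana went from 123 UMIs at E14 to 8 at E16 and at most 3 in any later library, and Tyr from 37 UMIs at E14 to at most 1. Both were thus almost limited to E14 in these libraries. Dct, by contrast, was at 2.99 CPM in the E14 library, fell below 1 at E16 (0.663), and was at 1.98 at birth, 1.93 and 1.23 at P3, and 3.27 at P6. Tyrp1 was at 0.356 at E14 and at 1.20 at P6. The 2 enzymes were therefore detected at P6 at or above their E14 level, with no cell meeting the rule. Whether fewer pigment cells were captured or each held less RNA cannot be told apart from a library's total.

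**Figure D1:**
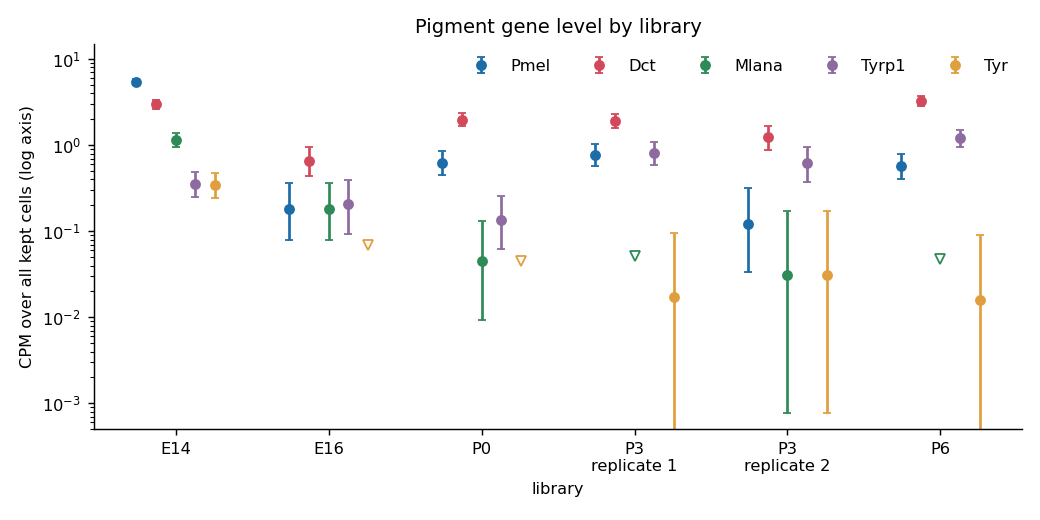
CPM of the 5 pigment genes over all kept cells of each of the 6 libraries, on a log axis. Points are single libraries, bars are exact 95% Poisson intervals cut off at the lower edge where they run below it, and open triangles mark 0 UMIs, drawn at the level of 3 UMIs. Pmel, Mlana and Tyr are highest at E14, while Dct at P6 is at 3.27 and Tyrp1 at 1.20.

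The members were selected on their UMI counts of the 5 pigment genes, so these values are a description. They were low in most members. Summed pigment UMIs were 3 in the lowest member, 4 in the median and 37 in the highest, with 28 members at 3, 21 at 4, 38 at 5 to 9 and 10 at 10 or more. Pmel was found in 91 members, Dct in 78, Mlana in 45, Tyrp1 in 21 and Tyr in 18. Pmel and Dct occurred together in 72, and 46 members held at least 3 of the 5 genes, 10 at least 4 and 3 all 5. The scaffold gene Pmel with Dct, the enzyme dopachrome tautomerase, was thus the usual pair. Members held 560 of the library's 1091 pigment UMIs, or 51.3%, and 359 other cells held the rest. Just outside the rule lay 56 cells with 2 pigment genes and 2 UMIs, of median depth 13218 UMIs, against 12842 for the members with 3. A further 14 cells held 3 or more UMIs of a single gene. Another 12 cells met the pigment conditions and were dropped for a neuronal marker, 8 for Pou4f2 and 4 for Tfap2b.

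Depth differed between members and other cells, and it bears on every level below. Members held 539 UMIs at the lowest, 10090 at the median and 53086 at the highest, against a median of 5413 in the 15619 other E14 cells. Of the members 34.0% had 4000 genes or more, the level above which the study discards cells as potential doublets, against 7.88% of other cells. Comparison with simulated doublets called 22 members (22.7%) and 12.5% of other cells, and these cells were kept. In units of 10000 UMIs, the pigment genes had 0.741 UMIs in the lowest member, 4.71 in the median and 143 in the highest, but since the rule asks for 3 UMIs, this share has a minimum that falls with depth, drawn as a line in the plot of pigment share against depth.

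**Figure D2:**
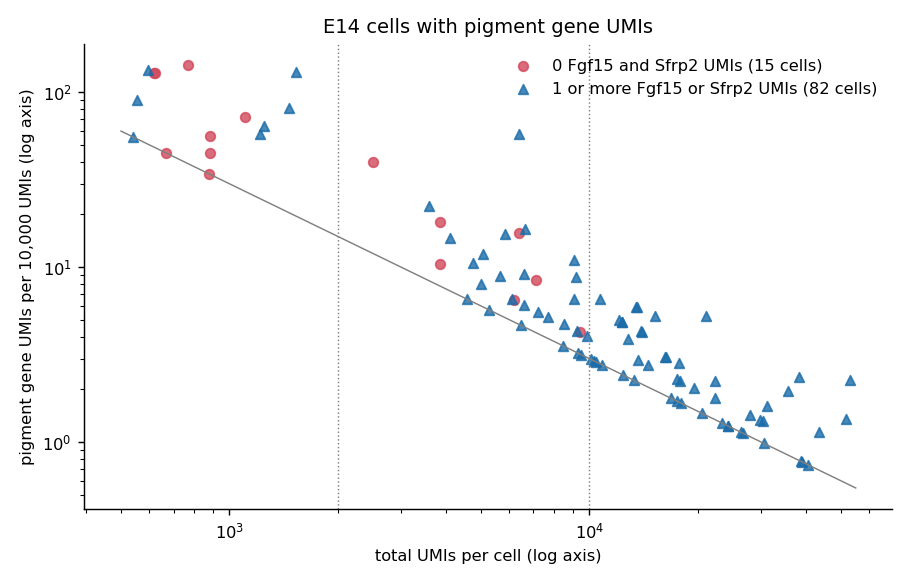
Pigment gene UMIs per 10000 UMIs against total UMIs for each of the 97 E14 members, both on log axes. Red circles are the 15 cells with 0 UMIs of Fgf15 and Sfrp2, blue triangles the 82 with at least 1, the grey line is the rule's minimum of 3 pigment UMIs and dotted lines mark 2000 and 10000 UMIs. Members under 2000 UMIs lie far above those of 10000 UMIs or more, many of which sit on the minimum.

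Genes outside the rule were compared between the 97 members and the other E14 cells on summed UMIs, over the 8233 genes with a mean of both levels of 10 CPM or more. Of these, 50 (0.607%) were at least 2-fold higher in members and 318 (3.86%) at least 2-fold lower, and the median log2 ratio was 0.01. A gene scarce in either group entered only through a high level in the other, and was past 2-fold by that choice. The ranking and both counts are thus a description. Genes with a lower mean were left out whatever their ratio, among them Gpnmb (55.6-fold). Of the genes compared, the 3 highest ratios belonged to Ptgds, Ttr and Trpm1. Ptgds, the prostaglandin D synthase that eye epithelia secrete, was at 36.6 CPM in members and 0.872 in others (42.0-fold, 29.0 to 60.2). Ttr, a carrier of thyroid hormone, was at 32.1 against 0.768 (41.8-fold, 28.1 to 61.4). Trpm1, a cation channel whose gene is a Mitf target in pigment cells, was at 109 against 3.59 (30.4-fold, 24.9 to 36.9). A UMI of Trpm1 was found in 54 of the 97 members, which held 27.4% of its UMIs in the library.

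The remaining genes among the 15 highest ratios included stress, epithelial and rim genes. Cryab, a small heat shock protein, was 21.8-fold higher, and Pcp4, a calmodulin regulator, was 19.8-fold higher. Krt18, a keratin of simple epithelia, was at 63.4 against 3.71 (17.1-fold, 13.3 to 21.7) with a UMI in 52 members. Its partner keratin Krt8, too low to be in the comparison, had 10 UMIs in 9 members (11.5-fold, 5.29 to 22.4). After these came Rab38, a GTPase that delivers Tyr and Tyrp1 to melanosomes (12.7-fold, 8.35 to 18.8), the kinase Sgk1 (9.83-fold), the chaperone Clu (6.71-fold), the gap junction protein Gja1 (5.34-fold), Bdh2 (4.68-fold), Rhoj (3.58-fold), Otx1 (3.36-fold), Wfdc1 (3.03-fold) and Gmpr (3.00-fold).

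Melanosome genes that the rule did not use were scarce but mostly higher. The 16 genes of that list, summed, were 3.93-fold higher in members (3.49 to 4.40), at 238 against 60.6 CPM. Only 3 were abundant enough to compare, and Trpm1 and Rab38 passed 2-fold. Both entered only through their level in members, which by itself put them past 2-fold. Slc24a5, an ion exchanger of the melanosome, did not pass (42.0 against 36.6, 0.863- to 1.50-fold). Among the scarce ones, Gpnmb, a glycoprotein related to Pmel, had 20 UMIs in 16 members (55.6-fold, 29.8 to 102). Oca2, a melanosomal anion channel, had 7 UMIs in 7 members (21.7-fold, 7.95 to 51.3). Slc45a2 and Gpr143, both melanosome membrane proteins, had 3 UMIs each. Mreg and Mlph, which take part in moving and handing on melanosomes, were at 0.

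Among pigment cell transcription factors, Mitf had 11 UMIs in 9 members, or 8.40 against 0.843 CPM (9.96-fold, 4.80 to 18.7). Otx1, a homeobox gene of the optic vesicle, was at 17.6 against 5.22 (2.11- to 5.10-fold). The factors shared with the neural retina differed little. Otx2 was at 114 against 108, Pax6 at 442 against 498, Sox9 at 114 against 83.1 and Lhx2 at 219 against 163. Summed, the 7 genes were 1.07-fold higher (1.01 to 1.13), and 1 of the 5 compared passed 2-fold. This was Otx1, which entered the comparison only through its level in members.

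Of 12 genes of the visual cycle and retinoid handling, 1 of the 5 compared, Ttr, passed 2-fold and none was 2-fold lower. Ttr entered the comparison only through its level in members, which by itself put it past 2-fold. Rlbp1, the retinaldehyde-binding protein, had 22 UMIs in 18 members (16.8 against 1.12 CPM, 9.07- to 23.8-fold). Rdh5, a retinol dehydrogenase of the pigment epithelium, had 10 UMIs in 10 members (4.91-fold, 2.31 to 9.26). Stra6, the retinol uptake receptor, was 1.81-fold higher (1.08 to 2.84). The enzymes that carry out the later steps, Rpe65 and Lrat, had 0 UMIs in members, but only 4 and 2 UMIs in the 15619 other cells, and 3 UMIs correspond to 2.29 CPM over the members. The list's sum was 1.38-fold higher (1.28 to 1.48).

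Transport and junction genes of the pigment epithelium were 2.03-fold higher as a sum (1.84 to 2.24), and of 5 compared Krt18 and Ezr passed 2-fold. Krt18 entered the comparison only through its level in members, while Ezr did not. Ezr, which links the apical membrane to actin, was at 58.0 against 22.5 CPM (2.03- to 3.25-fold). Slc4a5, a bicarbonate transporter, had 8 UMIs (12.2-fold, 4.99 to 25.7), and Aqp1, a water channel, had 3 UMIs. Best1, the chloride channel, and Cdh1, E-cadherin, were at 0. Of the 11 secreted and matrix genes none of 5 compared passed 2-fold in either direction, and the sum was 1.31-fold higher (1.23 to 1.39). Within it Sparc, a matrix glycoprotein, was at 314 against 180 and Igfbp7 at 9.92 against 1.33.

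Ciliary margin genes were at 830.5 CPM in members and 448.8 in others, 1.85-fold higher (1.74 to 1.96). Of 17 genes 9 were compared, and 4 passed 2-fold, all higher: Gja1 (45.0 against 8.43), Wfdc1 (34.4 against 11.3), Ccnd2, a cyclin (114 against 45.6), and Gas1, a membrane protein that modifies hedgehog signalling (104 against 42.4). The median log2 ratio of the 9 was 0.74, and 0.607% of all genes compared were at least 2-fold higher. Against other cells of matched depth, Gja1 kept a log2 ratio of 1.95, while those of Wfdc1 (0.76), Ccnd2 (0.68) and Gas1 (0.85) were under 2-fold and that of the list was 0.53. Among the 8 scarce genes, Wls, needed to secrete Wnt proteins, had 15 UMIs in 12 members (28.1-fold, 14.5 to 51.6), and Bmp4, a growth factor of the dorsal eye, had 12 UMIs in 8 members (10.5-fold, 5.24 to 19.2). Msx1, a homeobox gene of the margin, had 10 UMIs in only 2 members. The other scarce genes had at most 11 UMIs in members, with Lef1, a Wnt effector, at 1.07-fold (0.534 to 1.93), Bmp7 at 1.85-fold (0.739 to 3.87), Axin2, a Wnt target, at 2 UMIs and Cpxm2 at 0. Cdo1, with 24.4 against 25.0 CPM, differed little.

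**Figure D3:**
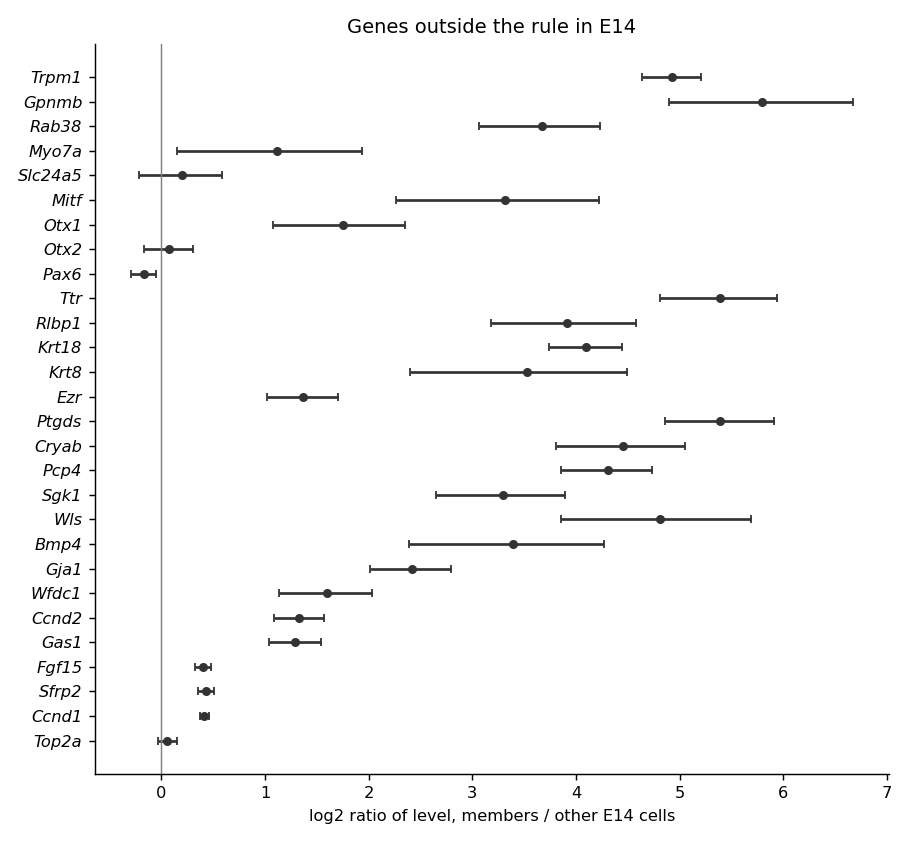
Log2 ratio of CPM between the 97 members and the 15619 other E14 cells for 28 genes that the rule did not use, with exact 95% intervals on counting error. Most melanosome, retinoid and epithelial genes lie to the right. The melanosome gene Slc24a5 (0.198), Pax6 and Otx2 lie close to 0, and the progenitor genes Fgf15, Sfrp2 and Ccnd1 slightly above 0.

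Summed over all members, progenitor and cell cycle genes stayed within 2-fold of other E14 cells. The 10 progenitor genes summed to 8646 CPM in members and 6842 in others (1.26-fold, 1.24 to 1.29), with none of the 10 past 2-fold. Fgf15 was at 1137 against 860.5, Sfrp2 at 1031 against 764 and the cyclin Ccnd1 at 3478 against 2610. The 20 cell cycle genes were 1.10-fold higher as a sum (1.08 to 1.13), again none past 2-fold, with the topoisomerase Top2a at 752 against 723. Against the 10 other cells nearest in depth to each member, the progenitor sum had a log2 ratio of 0.049 in place of 0.34, the cell cycle sum was at 7133 against 7626 CPM and Top2a at 752 against 896.

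Genes of neurons were lower. The rule keeps cells with Pou4f2, Tfap2b or Nr2e3 UMIs out of the members and leaves them among the others. All 10 ganglion cell genes were at least 2-fold lower, against 3.86% of all genes compared. Their sum was 511 against 4798 CPM, or against 3248 in the 12504 other cells without those 3 markers. Of neurogenic precursor genes, 2 of 9 compared were 2-fold lower, Gadd45a (84.0 against 185) and Neurod4 (17.6 against 36.9), while Atoh7, which starts ganglion cell formation, was at 635 against 1074. The 5 photoreceptor genes compared stayed within 2-fold. Besides hemoglobin genes, the 10 lowest ratios were those of the neuronal genes Cnr1, Cntn2, L1cam, Igfbpl1 and Nhlh2, at 1.53 to 9.92 CPM in members. Of the other cells' hemoglobin UMIs, 97.7% were in 13 cells, and reads of the near-identical Hba-a1 and Hba-a2 may have been split between them.

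Lists of other cell types were at the level of other cells or below it, apart from the bipolar cell and glia list. The 8 melanocyte genes summed to 31 UMIs in members and were 0.967 times the level of others (0.656 to 1.38), with the receptors Kit and Ednrb giving 11 and 15 of them, and Sox10, Pax3 and Foxd3 at 0 in members and at no more than 15 UMIs in all other cells. Of 12 mesenchyme and vessel genes 7 were at 0, and the sum was 0.890 times that of others, with Kdr, which retinal progenitors also express, giving 63 of 83 UMIs. The microglial genes C1qa, C1qb, Csf1r, Aif1 and Ctss and the lens gene Cryba1 were at 0. The 11 genes of the bipolar cell and glia list summed to 1.58 times the level of others (1.46 to 1.71), and 2 of 5 compared passed 2-fold. These were Apoe (2.09-fold, 1.83 to 2.37) and Clu (6.71-fold), which glia and other cells make. Clu entered the comparison only through its level in members. Glul was at 1.40-fold, Slc1a3 at 1.18-fold (0.981 to 1.42) and Car2 at 0.967-fold, and Aqp4 and Gfap had 0 UMIs in members.

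Split by depth, the levels of gene lists in members differed between ranges. Of cells under 2000 UMIs, 15 members and 1254 others, 1.18% were members, of cells with 2000 to under 10000 UMIs 0.276% (33 members) and of deeper cells 1.97% (49 members). Median pigment UMIs per 10000, whose minimum the rule sets, were 72.5, 8.0 and 2.26 in turn. The rule admitted shallow cells only at high pigment density (lowest 34.1), but deep cells down to 0.741. How far this choice of cells sets the list ratios that follow was not tested. Against other cells of the same range, the other melanosome genes were 35.9-fold, 9.28-fold and 2.42-fold higher. Visual cycle genes were 10.1-fold, 1.72-fold and 1.13-fold higher. Ciliary margin genes took another course, with 2.53-fold (1.37 to 4.27), 3.12-fold (2.76 to 3.53) and 1.38-fold (1.29 to 1.48). The retinal progenitor list was at 0.376 times the level of others in the shallow range (0.250 to 0.544) and at 1.11 and 1.09 times in the other ranges. The ranges were set after the values were seen.

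**Figure D4:**
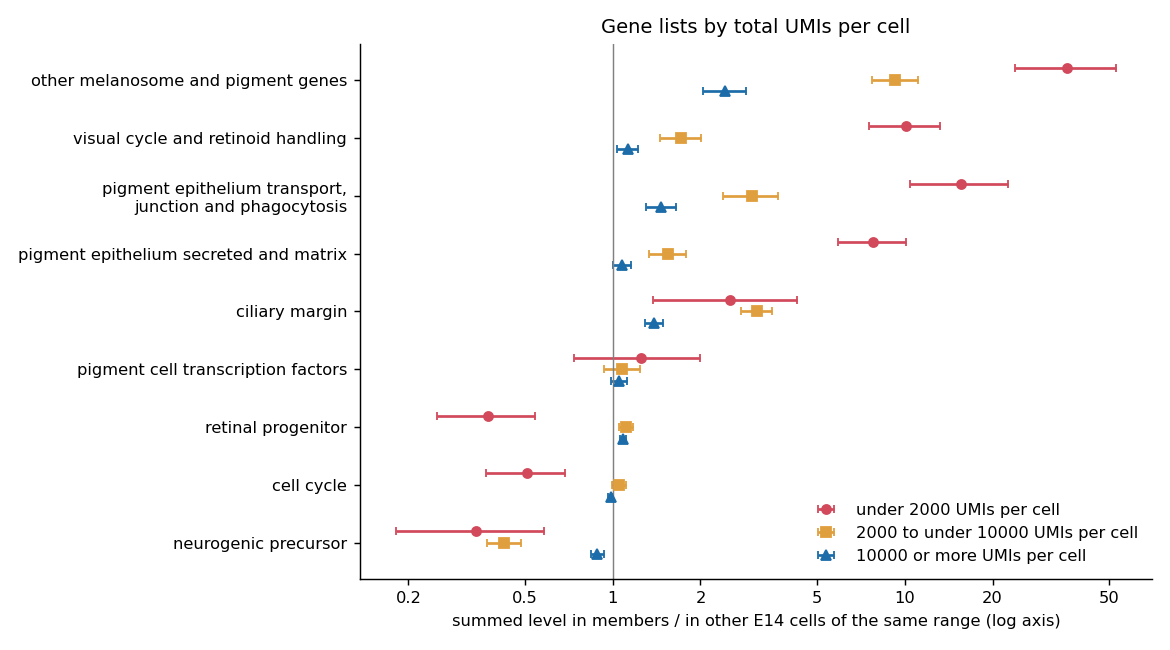
Summed CPM of 9 gene lists in E14 members divided by that in other E14 cells of the same range of total UMIs, on a log axis, with exact 95% intervals on counting error. Colours mark the ranges (15, 33 and 49 members), and pigment epithelium lists fall from the shallow to the deep range while progenitor genes are below 1 in the shallow range alone.

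The 15 shallow members held pigment epithelium transcripts at high density. They had 539 to 1533 UMIs, with a median of 880 against 920.5 in other shallow cells, and 3 to 20 pigment UMIs with a median of 8. Trpm1 was found in 10 of them (1481 CPM against 10.6 in other shallow cells), and Krt18 in 10 (1407 against 9.84). Ttr had 17 UMIs in 5 of these cells and 0 in the others, at least 403-fold higher by the exact lower limit. Ptgds was at 962 against 1.51 (636-fold, 144 to 5801) and Rlbp1 at 444 against 1.51 (293-fold, 52.5 to 2972). Apoe reached 1999 against 138 (14.5-fold, 9.30 to 21.8). In the cell with 554 UMIs in all, 9 were of Ttr. By size of ratio among genes with 5 or more UMIs, the leading genes also included Col8a1, a collagen (814 against 3.03), Ndrg2 (740 against 13.6), Ezr (592 against 15.1), Ucp2 (370 against 10.6) and the lysosomal protease Ctsd (1555 against 68.1).

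Progenitor transcripts differed by gene in the same cells. Fgf15 had 1 UMI over the 15 cells, at 74.0 CPM against 609 in other shallow cells (0.00308- to 0.680-fold), but Sfrp2 was at 518 against 564 (0.368- to 1.90-fold). Neither was found in 8 of the 15 cells and in 54.9% of other shallow cells. Ccnd1 was at 444 CPM against 1909 (0.0853- to 0.507-fold), and Atoh7 gave 9 UMIs in 9 cells. These cells lay near other members: among the 30 nearest cells of each, found without the pigment and rule genes, 2.73 were members on average, against 0.370 for other shallow cells. No doublet was called among them. Their mitochondrial share had a median of 1.90% against 0.849% in other shallow cells. Whether these barcodes were whole cells, fragments or droplets with free RNA was not tested.

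In the range of 2000 to under 10000 UMIs, Trpm1 was at 336 CPM against 2.86 (117-fold, 88.2 to 155), with a UMI in 20 of 33 members. By the same ranking the leading gene was Tspan10, a tetraspanin, with 8 UMIs in 6 members and 8 in the 11927 other cells (293-fold, 95.7 to 894). The next highest included Gpnmb (113-fold), Ttr (104-fold), Ptgds (100-fold), Cryab (97.5-fold), Wls (93.1-fold), Pcp4 (72.5-fold), Slc38a8, an amino acid transporter (69.6-fold), Rab38 (55.1-fold), Bmp4 (53.2-fold) and Mitf (33.8-fold). Gja1 was at 152 against 7.69 (13.4- to 28.1-fold) and Gas1 at 161 against 35.6 (3.14- to 6.30-fold). The range thus held both melanosome and margin genes, though the margin gene Wfdc1 did not separate members from others (1.90-fold, 0.516 to 4.89). Fgf15 was at the level of other cells (731 against 717), while Sfrp2 was 1.50-fold higher (1.31 to 1.72).

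Within that range 7 members had 0 UMIs of Fgf15 and Sfrp2, and no deeper member did. Among other E14 cells of 2000 UMIs or more, 25.5% had neither. These 7 cells had 2504 to 9450 UMIs and 4 to 10 pigment UMIs, and Trpm1 was found in all 7, with 1 to 14 UMIs (870 CPM, 603 to 1216). Gja1 was at 333, Rab38 at 256 and Gas1 at 538, each found in 4 of the 7 cells. Col9a1, a collagen of the margin list, was at 589 in 3 cells, while Ttr had 1 UMI and Ptgds and Rlbp1 0. One of them also held 41 UMIs of the neuronal gene Stmn2, another 8 of Atoh7, and another 20 of Ccnd2. Gap43, also of the ganglion cell list, had 40 UMIs in 5 of the 7 (1024 CPM). The 26 members of the same range with Fgf15 or Sfrp2 UMIs had 3579 to 9844 UMIs. Their Trpm1 was at 219 CPM (155 to 299), Gja1 at 112, Gas1 at 78.5, Col9a1 at 168 and Gap43 at 50.4. Ccnd1 was at 2483 (845 in the 7) and Top2a at 650 (102 in the 7), but the 7 were chosen for lack of progenitor UMIs. The member with the most pigment UMIs, 37, had 6370 UMIs, of which 16 were of Dct, 15 of Pmel, 3 of Mlana, 2 of Tyr and 1 of Tyrp1. It held 15 UMIs of Trpm1 and 8 of Gja1 beside 1 of Sfrp2, 1 of Ccnd1 and 0 of Fgf15.

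The 49 members with 10000 UMIs or more carried progenitor transcripts throughout. All held Fgf15 or Sfrp2 UMIs, as did all but 4.14% of other cells of that depth, and Ccnd1 was at 3776 against 3466 CPM. They had at most 12 pigment UMIs. Gpnmb was still 32.6-fold higher (14.3 to 73.4), Ptgds 15.7-fold (9.23 to 26.0), Ttr 10.6-fold (5.57 to 19.2), Trpm1 10.3-fold (7.36 to 14.1), with a UMI in 24 cells, and Krt18 7.34-fold (5.12 to 10.3). Doublets were called for 34.7% of them and 48.9% of other deep cells. Without called doublets the melanosome list had a log2 ratio of 2.24 over all members and 1.97 with them.

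A background of pigment UMIs was measured in E14 cells with a Pou4f2 or Tfap2b UMI, which should lack them. With every cell thinned to 2000 UMIs, 0.674% of 2225 E14 cells with a Pou4f2 UMI (0.378 to 1.11%) held a pigment UMI. So did 0.680% of 882 cells with a Tfap2b UMI (0.250 to 1.47%). Of 7768 cells with both Fgf15 and Sfrp2 and no Pou4f2, a class that holds most members, 1.29% did (1.05 to 1.56%), and 0.857% (0.664 to 1.09%) when its members were left out. Unthinned shares were 2.29% of Pou4f2 cells, and 3.86% and 3.04% of the Fgf15 and Sfrp2 class with and without members. Median depths were 6342.5, 6336 and 6306 UMIs in turn. The pigment conditions of the rule alone, without its markers, were met by 0.353% of Pou4f2 cells (0.152 to 0.694%). They were met by 0.433% of Tfap2b cells (0.118 to 1.11%) and by 109 of all 15716 kept E14 cells. Dct UMIs per Pmel UMI were 0.624 in members, 0.492 in other E14 cells and 0.475 in Pou4f2 cells, with overlapping intervals. In members under 2000 UMIs, at 2000 to under 10000 and at 10000 or more they were 0.816, 0.713 and 0.481. The rule uses both genes, so the ratio in members is a description and cannot decide on free RNA. The part of free RNA in the members with few pigment UMIs was not tested beyond these values.

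After thinning, most of 10 pigment epithelium and margin genes examined were found in a larger share of members than of other cells. Of these, Ptgds, Ttr, Trpm1, Krt18, Rab38, Gja1 and Wfdc1 are among the 15 highest ratios in the same cells. Their larger shares were thus partly set by that choice, and the values are a description. Of the 82 members with 2000 UMIs or more, 19.5% held a Trpm1 UMI (11.6 to 29.7%), against 0.460% of other cells and 0.315% of Pou4f2 cells. Krt18 was found in 14.6%, 0.592% and 0.494% in turn, Gja1 in 12.2%, 1.34% and 0.629%, and Ptgds in 7.32%, 0.160% and 0.135%. Rlbp1 was in 1 of the 82 members (1.22%, 0.0309 to 6.61%) against 0.216% of others, which does not separate them, and Mitf in 2. Stmn2, a neuronal gene, was found in 13.4%, 44.0% and 86.6%. Unthinned, Trpm1 was in 55.7% of members, 1.82% of others and 1.50% of Pou4f2 cells. The 15 shallow members and 1267 other cells were too shallow to be thinned.

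The single E16 member was a deep cell with few pigment UMIs. It held 40136 UMIs and 6581 genes, 2 UMIs of Dct and 1 of Mlana, 76 of Fgf15, 22 of Ccnd1, 14 of Top2a and 8 of Sfrp2, and 0 of Trpm1, Ttr and Krt18.

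After birth Dct UMIs came from cells with more Crx and less Ccnd1 than others. Dct UMIs per Pmel UMI were 3.63 in the E16 library, 3.14 at birth, 2.49 and 10.0 at P3 and 5.67 at P6, all above the E14 values. At P6, 177 cells held Dct, with 204 UMIs in all. Crx, the transcription factor of photoreceptor precursors, was 2.28-fold higher in cells with a Dct UMI than in other cells at P0 (1.74 to 2.93), 2.45-fold (2.08 to 2.87) and 1.55-fold (1.36 to 1.76) in the P3 replicates, and 2.16-fold (1.99 to 2.34) at P6. Ccnd1 was lower in them in all 4 of these libraries, at 0.151, 0.236, 0.720 and 0.250 times the level of other cells. At E16 the pattern differed, with Crx 0.714 times (0.461 to 1.06) and Fgf15 1.19 times (1.10 to 1.29) the level of other cells, in 27 Dct cells of median depth 21855 UMIs.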

How the data were processed

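For 6 mouse retina libraries the authors deposited matrices of raw counts (UMIs of each gene in each barcode), not normalized. They were made with Cell Ranger against mm10, whose version is not stated for E16 and P3 replicate 2 and was 6.1.2 elsewhere. Genes were joined over 27040 Ensembl identifiers. Kept barcodes had over 300 genes and a mitochondrial share of UMIs up to 15%, without the study's upper limit of 4000 genes. The members, the 18 gene lists (202 genes) and the ranges were chosen with earlier results of these data known. The edgeR test planned for libraries with 10 or more members could not be run, because only 1 library had them. Levels are CPM from summed counts, with Poisson, conditional binomial or Clopper-Pearson intervals. A ratio with 0 UMIs on a side was set at 3 UMIs. Genes named beyond the lists are the 15 highest and 10 lowest ratios among genes with a mean of 10 CPM or more, a rule of size taken in place of the test's threshold. In depth ranges they are among the 15 highest ratios of genes with 5 or more UMIs in members. Doublets were scored against 2 simulated doublets per cell (30 neighbours, 30 components, 2000 variable genes) at 0.8% per 1000 cells, and were marked but not removed. Ratios and their intervals were tested on simulated data. Python 3.11.15, numpy 2.4.6, scipy 1.17.1, pandas 2.3.3 and scikit-learn 1.9.0 were used. The published libraries and other experiments of the study were not analysed here. A listed gene is counted in its list and not reported here by itself.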

Additional observations from a re-analysis of the deposited data

How the results depend on the processing

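No paired analysis was possible because only 1 library held 10 or more members, and the test of members against other cells was not run for the same reason, with other tools, filters or libraries left out included. The E14 share of 0.617% was 0.443% under the study's limit of 4000 genes, 0.305% and 0.0636% with at least 5 and 10 pigment UMIs, and 0.0762% after thinning to 2000 UMIs. The E16 share of 0.0337% was 0 under these 4 alternatives. Log2 ratios of the melanosome, ciliary margin, progenitor and ganglion cell lists were 1.97, 0.89, 0.34 and -3.23. They were 3.58, 1.08, 0.19 and -2.40 as means of each cell's own level, and 3.01, 0.76, 0.11 and -3.77 with at least 10 pigment UMIs. The following were added after the data were seen. Without called doublets they were 2.24, 1.07, 0.37 and -3.56. Against cells of matched depth the ciliary margin, progenitor and ganglion lists were at 0.53, 0.049 and -2.40. Under 4000 genes the melanosome, ciliary margin and ganglion lists were at 2.82, 1.16 and -2.34. Against other cells without Pou4f2, Tfap2b and Nr2e3 UMIs the ciliary margin, progenitor and ganglion lists were at 0.75, 0.17 and -2.67. Wfdc1 turned direction with at least 10 pigment UMIs, to a log2 ratio of -0.29. Thinned shares of 19.5% for Trpm1 and 14.6% for Krt18 in members were 55.7% and 53.6% without thinning, and the latter 6.90% at 1000 UMIs. Of the 18 lists and 21 genes recomputed, no other past 2-fold turned direction. Mitf had no UMI in members with at least 10 pigment UMIs. The causes were not tested. The depth of 97 cells limits genes under 2.29 CPM, and spread between animals or libraries was not measurable.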
